A study of Mus musculus with 15 samples.

Results

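The 10 genes described here encode surface proteins by which macrophages are recognised and attach to cells and matrix. They are Adgre1, the integrin alpha subunit genes Itgal, Itgam, Itgax, Itga4, Itga5 and Itgav, and the integrin beta subunit genes Itgb1, Itgb2 and Itgb3. Each was found by its symbol among the probe sets that carry exactly 1 gene symbol, and the probe set with the highest mean over all 15 arrays stood for the gene. All 10 were among the 22180 genes measured this way, and all 10 were among the 15468 genes that passed a filter on dim probe sets and were tested.

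Integrins are receptors made of 1 alpha and 1 beta subunit that bind the extracellular matrix or proteins on other cells, and they signal in both directions across the membrane. The beta 2 subunit pairs on leukocytes with alpha L (the receptor LFA-1), alpha M (CD11b, in the receptor Mac-1) and alpha X (CD11c), while beta 1 pairs with alpha 4 to bind VCAM-1 and fibronectin and with alpha 5 to bind fibronectin, and beta 3 pairs with alpha V to bind vitronectin, osteopontin and fibronectin. Adgre1 encodes EMR1, an adhesion G protein-coupled receptor that is the usual surface marker of mouse macrophages. CD11b and EMR1 are commonly stained together to identify these cells.

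The arrays measured total RNA of RAW264.7, a single mouse macrophage-like tumour line in culture, so no other cells were present by design. LPS (lipopolysaccharide, from the outer membrane of Gram-negative bacteria) was given at 1.0 µg/mL, and the lipids tested were 13-HDHEA and 16-HDHEA, hydroxylated docosahexaenoyl ethanolamides that are isomers with the hydroxyl group on different carbons. There were 5 groups of 3 arrays: LPS with 5.0 µM 13-HDHEA, LPS with 5.0 µM 16-HDHEA, LPS with both at 2.5 µM each (the combined treatment), LPS with vehicle, and no LPS with vehicle and PBS in place of LPS. Every group had 0.1% ethanol in its medium, the lipids or vehicle were added 30 min before LPS or PBS, and cells were harvested after 24 h. The labels tie each replicate number to its own experiment identifier, so the 3 arrays of a group come from 3 experiments on 1 line.

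Values are log2 expression per probe set after RMA (a background correction, quantile normalization and probe summary), on which 1 unit is a 2-fold change, and a level is given only for comparison with the same gene in other groups. The array medians lay between 3.62 and 3.69 over all probe sets. All 11 measured genes of a list of 12 macrophage markers (such as Cd68, Csf1r and Lyz2) exceeded the 40th percentile of their array in every array, as did 9 of the 10 genes described here, while Itgb3 did so in only 5 of 15. This threshold does not set macrophage markers apart. Of 8 epithelial and endothelial markers, 7 or 8 exceeded it in all 3 arrays of each group. The mean over the macrophage marker list ran from 10.13 to 10.27 in the LPS arrays with vehicle and from 9.96 to 10.13 in the arrays without LPS. The corresponding mean for the 7 neutrophil markers ran from 3.31 to 3.58 with LPS and vehicle and from 2.78 to 3.15 without LPS, and that for 4 measured megakaryocyte and platelet markers from 5.14 to 5.34 with LPS and vehicle and from 4.72 to 4.93 without LPS. The osteoclast list mean ran from 4.92 to 5.07 with LPS and vehicle and from 4.67 to 4.78 without LPS. That of the fibroblast list ran from 3.45 to 3.47 with LPS and vehicle and from 3.17 to 3.35 without LPS. For the dendritic cell, lymphocyte, and epithelial and endothelial lists the ranges of these groups overlapped. The part of these lists in the results below was not tested.

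The promoters below are those of 4 genes that differ in how widely they are used: Itgam is restricted to leukocytes, and Itga5, Itgav and Itgb1 are expressed in most tissues. Each is 300 bases from RefSeq on GRCm38.p6, 250 before and 50 after the start of transcription given in the promoter table, and 6 of the 10 genes had an entry. For Itgav that start lies inside the annotated span of the gene, which begins at 83722303. Capitals mark every match, on either strand, to GAGGAA (the core of the PU-box bound by PU.1) or GGGCGG (the GC box bound by Sp1), and no match overlaps another. The Itgam window is chr7:128062390-128062689 (plus strand), that of Itga5 chr15:103366742-103367041 (minus), that of Itgav chr2:83724147-83724446 (plus) and that of Itgb1 chr8:128685404-128685703 (plus).
Itgam: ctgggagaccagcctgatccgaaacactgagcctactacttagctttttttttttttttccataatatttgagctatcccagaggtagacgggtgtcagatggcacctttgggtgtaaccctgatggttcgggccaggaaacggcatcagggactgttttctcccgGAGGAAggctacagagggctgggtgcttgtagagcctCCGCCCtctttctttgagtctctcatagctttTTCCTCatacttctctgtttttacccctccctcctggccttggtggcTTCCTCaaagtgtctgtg
Itga5: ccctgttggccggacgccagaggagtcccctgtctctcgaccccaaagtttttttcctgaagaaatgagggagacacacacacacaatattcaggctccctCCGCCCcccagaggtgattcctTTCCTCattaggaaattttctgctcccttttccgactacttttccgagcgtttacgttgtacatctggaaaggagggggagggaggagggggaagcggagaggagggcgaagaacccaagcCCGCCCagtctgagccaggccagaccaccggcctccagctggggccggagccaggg
Itgav: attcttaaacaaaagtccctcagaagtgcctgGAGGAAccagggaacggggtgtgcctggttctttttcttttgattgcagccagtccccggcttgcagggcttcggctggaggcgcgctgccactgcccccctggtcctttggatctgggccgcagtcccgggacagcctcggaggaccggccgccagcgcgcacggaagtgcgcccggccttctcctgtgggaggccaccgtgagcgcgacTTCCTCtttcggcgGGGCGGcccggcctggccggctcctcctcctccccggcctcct
Itgb1: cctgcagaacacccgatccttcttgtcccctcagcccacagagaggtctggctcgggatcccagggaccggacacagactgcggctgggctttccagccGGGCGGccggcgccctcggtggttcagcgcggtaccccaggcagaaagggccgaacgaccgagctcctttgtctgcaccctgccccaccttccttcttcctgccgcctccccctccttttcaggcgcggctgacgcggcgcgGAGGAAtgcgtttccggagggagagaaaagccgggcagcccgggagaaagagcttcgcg
GAGGAA occurs 3 times in the Itgam window, 2 times in that of Itgav and 1 time in each of the other windows shown, and 28.3% of all 32851 promoters of the table hold at least 1. GGGCGG occurs 2 times in the Itga5 window and 1 time in each of the others, and 35.7% of all promoters hold it. Neither was found in the Itgax window, which holds 1 match to the AP-1 sequence TGAGTCA, 56 bases before the start (5.2% of promoters), and Itga4 holds 1 GGGCGG. No window of the 6 held TATAAA (13.6% of promoters) or the NF-kB consensus site (4.51%). A match is a description of the letters only.

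**Figure D1:**
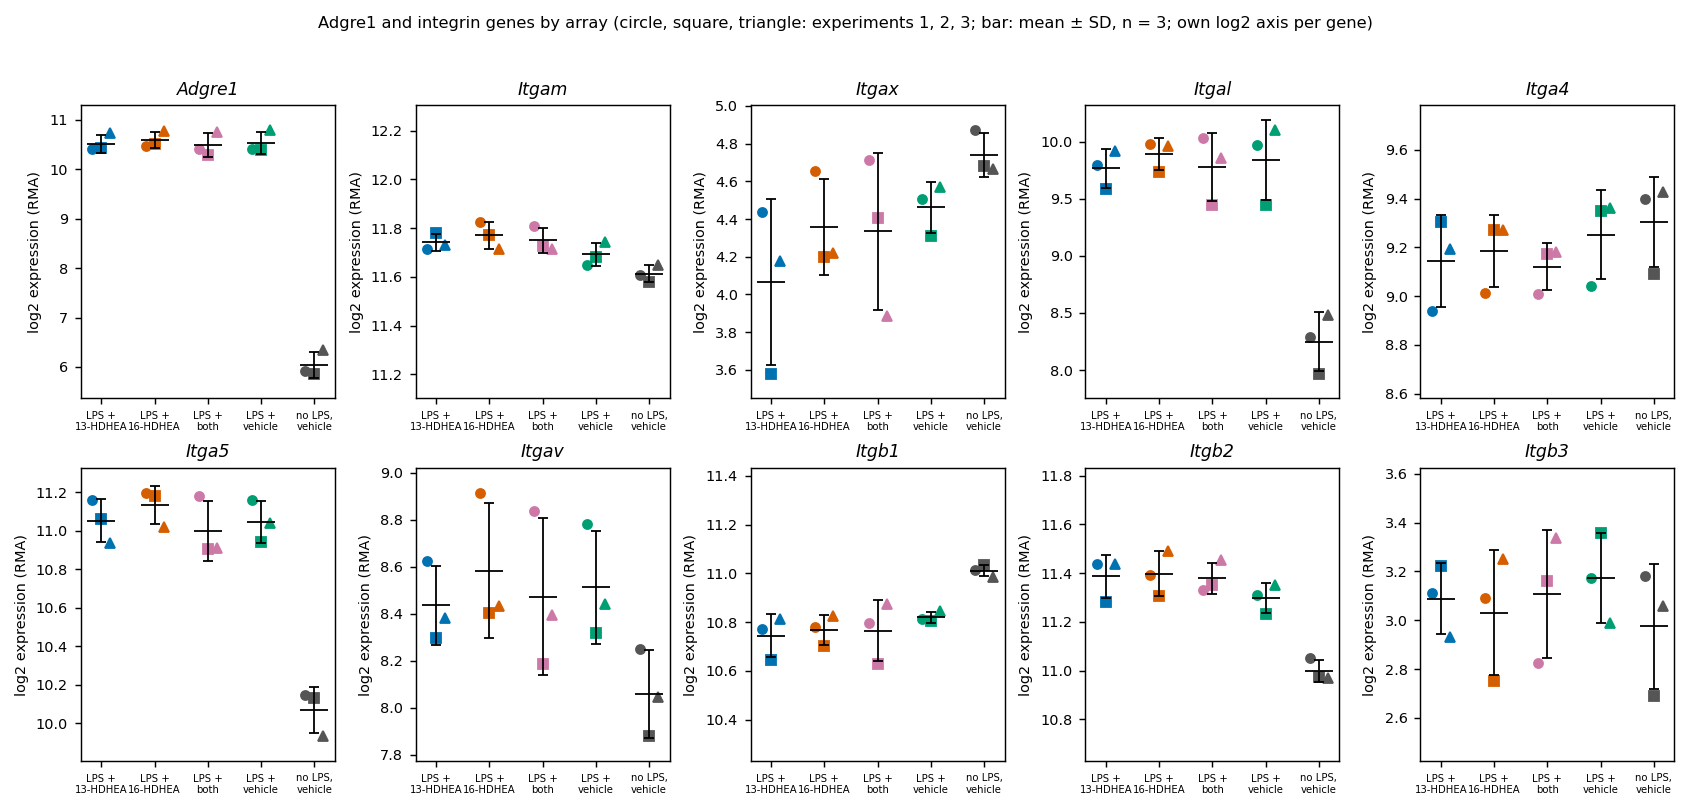
Log2 expression (RMA) of the 10 genes in each of the 15 arrays, 1 panel and 1 log2 axis per gene, with groups along the x axis. Circles, squares and triangles are experiments 1, 2 and 3, and bars are the group mean ± SD (n = 3). The 12 arrays with LPS lie above the 3 without it for Adgre1, Itgal, Itga5, Itgb2 and Itgam and below them for Itgb1, and the 4 groups with LPS overlap in every panel.

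LPS with vehicle was first set against no LPS, which asks what 24 h of LPS did to these transcripts. Adgre1, Itgal, Itga5 and Itgb2 rose, 0 fell, and the other 6 did not pass an adjusted p of 0.05 in limma, where 29.8% of all genes tested passed, 13.5% higher and 16.3% lower. Among the 6, Itgav (higher) and Itgb1 (lower) had an unadjusted p under 0.05, and with experiment as a block both passed (adjusted p = 0.000526 and 0.0454 in limma), which made 5 higher and 1 lower. The 29.8% belongs to the fit that leaves experiment out, and no share of all genes is given here for the blocked fit. The 5 higher and 1 lower therefore have no share of all genes to stand beside. The median log2 difference of the 10 genes was 0.25, against 0.00 over all genes tested. When all 12 arrays with LPS were set against the 3 without, 5 genes lay wholly above (12.3% of all genes did) and 1 wholly below (16.1%), where 28.4% of all genes had values that do not overlap.

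The EMR1 gene Adgre1 (Entrez 13733, chr17:57358581-57483529 on GRCm38.p6) read 10.42, 10.40 and 10.80 with LPS and vehicle, against 5.92, 5.87 and 6.34 without LPS. The groups were far apart, with a gap many times the spread within either. The difference was 4.50 (SE 0.164, 95% interval 4.15 to 4.85, adjusted p = 2.26e-10), which is a 22.6-fold rise. Only 21 of the 15468 genes, or 0.136%, had a larger one. Within experiments 1, 2 and 3 it was 4.50, 4.53 and 4.46. Without LPS the gene was at percentile 74.1 of the array on average, and with LPS and vehicle at percentile 97.9, so that the lower level was not at the dim end of the scale. In bulk RNA, as here, a change in the share of cells that express a gene and a change in the RNA per cell cannot be told apart.

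The genes of the 3 leukocyte alpha subunits lie on 1 stretch of chromosome 7 and differed in their values. Itgal, the alpha L subunit of LFA-1, which binds ICAM-1 (chr7:127296139-127335137), read 9.97, 9.45 and 10.10 with LPS and vehicle, against 8.29, 7.97 and 8.48 without LPS. It rose by 1.59 (SE 0.189, interval 1.19 to 2.00, 3.01-fold, adjusted p = 1.62e-05), with 1.68, 1.48 and 1.62 in the 3 experiments, and the groups did not overlap. Itgam, the alpha M subunit of Mac-1, which binds complement fragments, fibrinogen and ICAM-1 (chr7:128062640-128118491), read 11.65, 11.68 and 11.74 with LPS and vehicle, against 11.61, 11.58 and 11.65 without LPS. These ranges nearly touch, and the difference of 0.08 (interval -0.06 to 0.22, adjusted p = 0.434) did not pass, although the LPS array was the higher in 3 of 3 experiments. The interval allows a rise of at most 0.22, on a gene at percentile 99.4 of the array in both groups.

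Itgax, the alpha X subunit known as CD11c, which also marks many dendritic cells (chr7:128129526-128150657), read 4.51, 4.31 and 4.57 with LPS and vehicle, against 4.87, 4.68 and 4.66 without LPS. The LPS values were lower in 3 of 3 experiments and did not overlap the others, but the difference of -0.28 (interval -0.75 to 0.20, adjusted p = 0.407) did not pass. This probe set was at percentile 62.0 with LPS and vehicle and 64.0 without LPS. The median difference of the 6 measured dendritic cell markers was 0.05.

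Itgb2, the beta 2 subunit shared by these 3 alpha subunits (chr10:77530329-77565708), read 11.31, 11.23 and 11.35 with LPS and vehicle, against 11.05, 10.97 and 10.97 without LPS. The groups did not overlap, and the gene rose by 0.30 (SE 0.0777, interval 0.13 to 0.47, 1.23-fold, adjusted p = 0.00891), with 0.26, 0.26 and 0.38 in the experiments. Whether the rises of Itgb2 and its partner Itgal differ was not tested, since each is read by its own probe set.

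Of the subunits of the fibronectin and VCAM-1 receptors, Itga5 alone passed the test. Itga5, the alpha 5 subunit of the fibronectin receptor (chr15:103344286-103366791), whose window with 2 GGGCGG matches is shown above, read 11.16, 10.94 and 11.04 with LPS and vehicle, against 10.14, 10.13 and 9.93 without LPS. It rose by 0.98 (SE 0.103, interval 0.76 to 1.20, 1.97-fold, adjusted p = 5.34e-06), with no overlap and with 1.01, 0.81 and 1.11 in the 3 experiments. Its partner Itgb1, the beta 1 subunit (chr8:128685654-128733579), read 10.81, 10.80 and 10.85 with LPS and vehicle, against 11.01, 11.03 and 10.99 without LPS. It was lower in 3 of 3 experiments, and the groups did not overlap. The difference was -0.19 (SE 0.0791, interval -0.36 to -0.02), a 1.14-fold change whose adjusted p of 0.0895 missed the threshold. With experiment as a block the adjusted p was 0.0454. Without the block, Itgb1 also passed with repeated quantile normalization (adjusted p = 0.0292) and with trend and robust eBayes (adjusted p = 0.0276), so this call depends on the fit used.

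Itga4, the alpha 4 subunit that binds VCAM-1 (chr2:79255426-79333114), read 9.04, 9.35 and 9.36 with LPS and vehicle, against 9.40, 9.09 and 9.43 without LPS. The groups overlapped, the sign differed between experiments, and the difference of -0.05 (interval -0.33 to 0.22, adjusted p = 0.818) did not pass. A further probe set that carries both Cerkl and Itga4 could not be given to either gene, and averaged 4.59 with LPS and vehicle and 4.79 without LPS.

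Of the vitronectin receptor subunits, Itgav (alpha V, chr2:83722303-83806917) read 8.78, 8.32 and 8.44 with LPS and vehicle, against 8.25, 7.88 and 8.05 without LPS. Its groups did not overlap, though the lowest LPS value and the highest value without LPS were close, and the LPS array was the higher in 3 of 3 experiments, by 0.53, 0.44 and 0.40. The difference was 0.45 (SE 0.185, interval 0.06 to 0.85, 1.37-fold, adjusted p = 0.084), and with experiment as a block the SE was 0.075 and the adjusted p 0.000526. The second probe set of Itgav was dim and averaged 3.27 with LPS and vehicle and 2.96 without LPS, and with the mean of both probe sets the difference was 0.38 (adjusted p = 0.0427). Itgb3 (beta 3, chr11:104608000-104670476), which also pairs with alpha IIb on platelets, read 3.17, 3.36 and 2.99 with LPS and vehicle, against 3.18, 2.69 and 3.06 without LPS. These values lie around the 40th percentile of the arrays and overlapped, and the difference of 0.20 (interval -0.17 to 0.56, adjusted p = 0.444) did not pass.

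**Figure D2:**
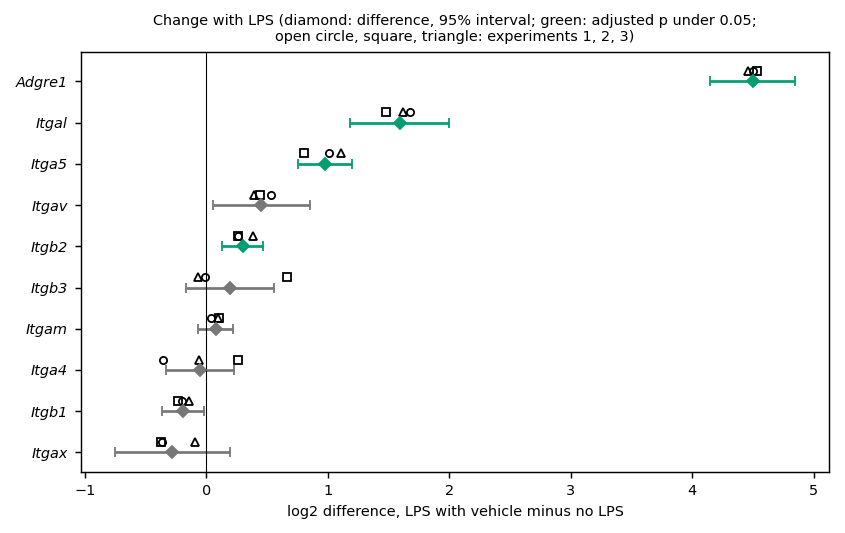
Log2 difference of LPS with vehicle minus no LPS for each of the 10 genes, sorted by size. Diamonds and bars are the limma difference and its 95% interval, green where the adjusted p was under 0.05, and open circles, squares and triangles are experiments 1, 2 and 3. Adgre1 stands at 4.50, Itgal at 1.59, Itga5 at 0.98 and Itgb2 at 0.30, with all 3 experiments on the same side of 0.

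The other genes of integrin biology were read from the same fit. In it 29.8% of all genes tested passed, 13.5% higher and 16.3% lower, and the counts of each list stand beside these shares. Calls made with experiment as a block have no such share here. Of 17 genes measured from the list of other integrin subunits, 10 were tested, and 1 fell (2 with experiment as a block). The 17 include the integrin beta-like gene Itgbl1, which is not a subunit gene and was set aside as dim. Itga6, the alpha 6 subunit of laminin receptors, averaged 5.28 with LPS and vehicle and 6.31 without LPS (difference -1.02, adjusted p = 0.00462). Itgb5, which pairs with alpha V, averaged 7.23 with LPS and vehicle and 7.66 without LPS; its difference of -0.43 had an adjusted p of 0.16, and 0.0426 with experiment as a block. Itga7 (0.26, adjusted p = 0.105) and Itgad (0.19, adjusted p = 0.283) did not pass either. The median over the 10 was 0.08.

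Among 25 tested genes for proteins that activate integrins or link them to actin, 4 rose (Rap1b, Fyb, Lims1 and Fermt3) and 6 fell, against 7 and 5 with each array centred on its median. With experiment as a block, Rapgef1 (0.24, adjusted p = 0.03 in limma) and Sharpin (0.18, adjusted p = 0.0472) also passed as higher. Itgb3bp also passed as lower with the block (-0.51, adjusted p = 0.0223 in limma). Vcl, which encodes the talin partner vinculin, fell by 0.82 (adjusted p = 4.89e-06), and Tns1, for the adaptor tensin 1, fell by 0.89 (adjusted p = 4.15e-05). The Tns1 mean with LPS and vehicle was 3.19, close to the 40th percentile of the arrays (3.16 to 3.22), where changes can be compressed. Rap1b, for a small GTPase that switches integrins on, rose by 0.55 (adjusted p = 0.000119), and Fyb, for an adaptor in the same route, rose by 0.51 (adjusted p = 7.92e-05). Of 12 tested genes for signalling proteins downstream of integrins, 2 rose (Syk and Src) and 4 fell (Vav3, Pik3cd, Plcg2 and Fyn). Csk also passed as lower with experiment as a block (-0.30, adjusted p = 0.00959 in limma). The tyrosine kinase genes Syk and Src rose by 1.66 and 1.27 (adjusted p = 3.77e-08 and 2.55e-05), while Vav3 fell by 1.27 and Pik3cd, a phosphoinositide 3-kinase subunit, fell by 0.90 (adjusted p = 7.54e-07 and 1.14e-05).

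Among 17 tested genes of the list of integrin ligands and counter-receptors, 6 rose and 3 fell, the latter being Tgfbi, Edil3 and Mfge8. The 6 include Nectin2, whose product is not an established integrin ligand. The lower count was 1 without the array of experiment 1 in the group without LPS. Icam2 also passed as lower with experiment as a block (-0.36, adjusted p = 0.0484 in limma). Icam1, which encodes the ligand of LFA-1 and Mac-1, averaged 10.26 with LPS and vehicle and 8.85 without LPS, a rise of 1.41 (adjusted p = 6.79e-05). Nectin2, for an adhesion molecule of the nectin family, rose by 1.47 (adjusted p = 7.29e-08), and the thrombospondin gene Thbs1, which lay below the 40th percentile without LPS, rose at least 3.05-fold (adjusted p = 1.56e-06). Tgfbi, for a matrix protein that several integrins bind, averaged 5.12 with LPS and vehicle and 7.86 without LPS, and fell by 2.73 (adjusted p = 2.54e-05). Vcam1, Vtn and Tnc were among 7 measured genes of this list that the filter set aside as dim.

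Of 12 tested genes for tetraspanins and other surface partners, 5 rose (Plaur, Cd82, Cd53, Cd44 and Slc3a2) and 1 fell (2 with experiment as a block, Tspan4 being the second). Cd37 also passed as higher with the block (0.21, adjusted p = 0.044 in limma). Plaur, for the urokinase receptor, which associates with integrins, rose by 1.79 (adjusted p = 4.09e-07), and the tetraspanin genes Cd82 and Cd53 rose by 0.57 and 0.42 (adjusted p = 5.92e-05 and 0.000842). Cd151, for a tetraspanin that binds laminin-receptor integrins, fell by 0.43 (adjusted p = 0.000953). Adgre1 belongs to the adhesion G protein-coupled receptors, of which 9 others were tested, with 2 higher and 2 lower. Adgrl1, a latrophilin gene, fell by 1.57 (adjusted p = 0.000447). The calls of Adgrl2 (0.44, adjusted p = 0.0336), Adgrg6 (0.50, adjusted p = 0.0352) and Adgra3 (-0.53, adjusted p = 0.0446) were lost without 4, 4 and 6 of the 6 arrays left out in turn, so that 0 or 1 higher and 1 lower gene were called.

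Of 12 tested genes for transcription factors described at leukocyte integrin promoters, 2 rose (1 without experiment 1 or 3 of LPS with vehicle, or experiment 2 of no LPS) and 4 fell. Those that rose were Cebpb and Irf8, and Runx1 was the fourth that fell (by 0.30, adjusted p = 0.0362). Cebpb rose by 1.24 (adjusted p = 1.82e-05), and Nfatc1, Jun and Sp1, whose protein binds the GC box, fell by 0.83, 0.76 and 0.50 (adjusted p = 1.18e-05, 1.72e-05 and 0.00103). Spi1, which encodes PU.1, averaged 8.43 with LPS and vehicle and 8.60 without LPS, and its difference of -0.17 (adjusted p = 0.103) did not pass.

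Markers of other cell types were read as a check on the line, beside the same 13.5% higher and 16.3% lower over all genes tested. Of 11 tested macrophage markers, 3 rose, the Fc receptor gene Fcgr1 by 1.56, the efferocytosis receptor gene Mertk by 1.36 and the LPS co-receptor gene Cd14 by 0.30. In the same list 2 fell, Tyrobp by 0.37 and Csf1r by 0.24. Lyz2 also passed as lower with experiment as a block (-0.20, adjusted p = 0.0461 in limma). Of 5 tested neutrophil markers 2 rose, S100a8 by 1.30 and Mmp8 at least 2.09-fold, and of 4 platelet markers 3 rose, Gp6 by 0.90, Pf4 by 0.53 and Gp9 at least 1.33-fold. Of 6 tested osteoclast markers 1 rose (Mmp9 by 3.23) and 2 fell (Dcstamp by 0.98 and Nfatc1 by 0.83). Of 6 tested fibroblast markers Pdgfra rose, of 8 epithelial and endothelial markers Cdh5 rose and Vwf fell, of 3 lymphocyte markers Cd4 fell, and the lowest adjusted p of 6 dendritic cell markers was 0.216. Over all 15 lists, the lowest adjusted p of any gene in the comparisons of the 3 treatments with vehicle, and of 13-HDHEA with 16-HDHEA, was 0.595.

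**Figure D3:**
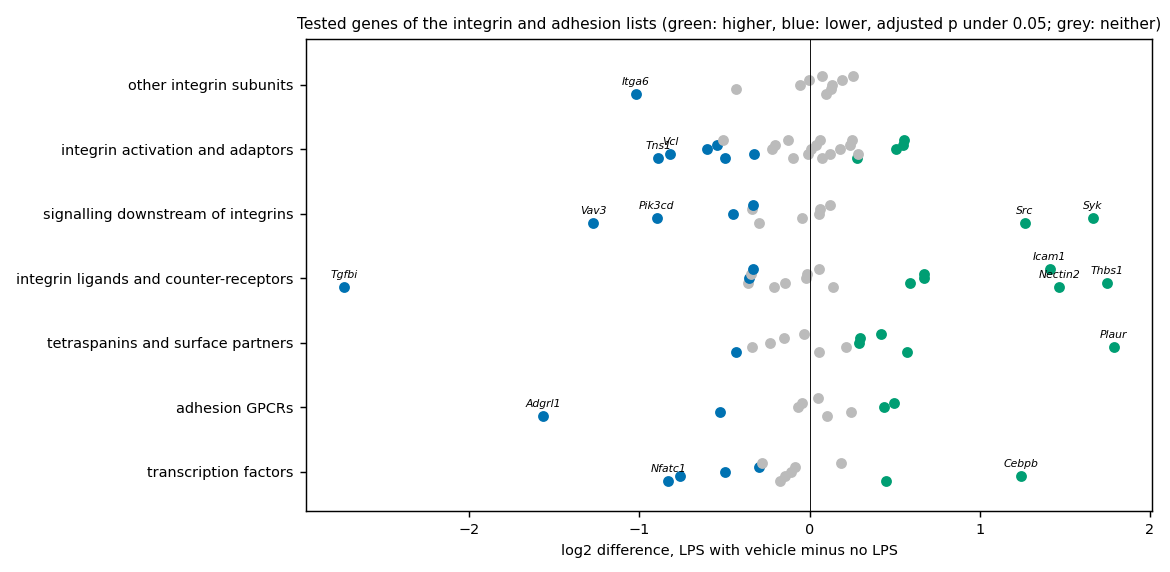
Log2 difference of LPS with vehicle minus no LPS for every tested gene of the 7 lists, 1 list per row and 1 point per gene, green where the gene was higher and blue where it was lower at an adjusted p under 0.05. Points of both colours stand in every row except that of the other integrin subunits, where Itga6 alone passed at -1.02. The points reach from -2.73 (Tgfbi, a ligand gene) to 1.79 (Plaur, a surface partner gene).

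The next comparisons asked whether either HDHEA changed these transcripts in LPS-treated cells. None of the 10 genes passed in any of the 6 comparisons made, which set each of the 3 treatments and their mean against vehicle, one isomer against the other, and the combined treatment against the average of both single ones. Of the 60 limma tests without experiment as a block, 0 had an unadjusted p under 0.05, and the lowest was 0.0945 (Itgax with 13-HDHEA). With the block its SE was 0.175 against 0.221 and its adjusted p 0.785 in limma. None of the 10 genes passed with the block either, and its unadjusted p-values are not given here. Among all 15468 genes, 1 passed for 13-HDHEA against vehicle (0.00646%), 1 for 13-HDHEA against 16-HDHEA (0.00646%), the meiosis gene Mnd1 in both, and 0 in the other 4 comparisons, which had between 460 and 586 genes with an unadjusted p under 0.05. The comparisons with vehicle share the same 3 vehicle arrays, which are also those of the LPS comparison above.

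Adgre1 read 10.40, 10.43 and 10.73 with 13-HDHEA, 10.48, 10.52 and 10.78 with 16-HDHEA and 10.41, 10.29 and 10.76 with both, against 10.42, 10.40 and 10.80 with vehicle. In each group the third experiment was the highest, and the ranges overlapped. The difference from vehicle was -0.02 (interval -0.37 to 0.33) for 13-HDHEA, 0.06 (-0.30 to 0.41) for 16-HDHEA and -0.05 (-0.40 to 0.30) for both, beside the 4.50 measured for LPS. Itgal read 9.80, 9.58 and 9.92 with 13-HDHEA, 9.98, 9.73 and 9.96 with 16-HDHEA and 10.03, 9.45 and 9.86 with both, against 9.97, 9.45 and 10.10 with vehicle, and these ranges overlapped as well. Its differences, with the treatments in the same order, were -0.07, 0.05 and -0.06, and the intervals reached no further than -0.48 and 0.46. For Itga5 the differences were 0.01, 0.09 and -0.05, with bounds between -0.27 and 0.31.

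Itgb2 read 11.44, 11.28 and 11.44 with 13-HDHEA, 11.39, 11.31 and 11.49 with 16-HDHEA and 11.33, 11.35 and 11.45 with both, against 11.31, 11.23 and 11.35 with vehicle. It was higher than vehicle in 3 of 3 experiments with each treatment, by 0.09, 0.10 and 0.08 on average. The ranges overlapped, and for the mean of the treatments the difference was 0.09 (interval -0.05 to 0.23, adjusted p = 1.00 in limma). Itga4 read 8.94, 9.30 and 9.19 with 13-HDHEA, 9.01, 9.27 and 9.27 with 16-HDHEA and 9.01, 9.17 and 9.18 with both, against 9.04, 9.35 and 9.36 with vehicle. It was lower than vehicle in 3 of 3 experiments with each treatment, with differences of -0.11 (interval -0.38 to 0.17), -0.07 (-0.34 to 0.21) and -0.13 (-0.41 to 0.15), and the ranges overlapped. Itgb1 was also lower than vehicle in 3 of 3 experiments with 13-HDHEA and with 16-HDHEA. So were Itgax, Itgav and Itgb3 with 13-HDHEA, and Adgre1 with the combined treatment. Of the genes described here, only Itgb2 was higher in 3 of 3. The share of all genes with such agreement against vehicle is not given here, so how common it is cannot be judged. Itgam differed from vehicle by 0.05, 0.08 and 0.06, with interval bounds between -0.10 and 0.22 over the 3 treatments.

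The lowest p belonged to Itgax, which read 4.44, 3.58 and 4.18 with 13-HDHEA, 4.65, 4.20 and 4.22 with 16-HDHEA and 4.71, 4.41 and 3.89 with both, against 4.51, 4.31 and 4.57 with vehicle. The 13-HDHEA values spread more widely than those with vehicle (SD 0.439 against 0.135, n = 3 each), with experiment 2 the lowest, and the ranges overlapped. The difference for 13-HDHEA was -0.40 (interval -0.87 to 0.08, adjusted p = 1.00 in limma), lower in 3 of 3 experiments by 0.07, 0.73 and 0.39. Apart from Itgax and Itgb3, the differences of all genes from vehicle lay between -0.13 and 0.10 over the 3 treatments, and the intervals excluded changes beyond -0.48 and 0.47. A p that misses the threshold does not show that a treatment left a gene as it was. These intervals are those of the fit without experiment as a block. For each treatment against vehicle, the SE with the block was 0.0635 against 0.164 for Adgre1 and 0.0940 against 0.189 for Itgal. It was 0.0750 against 0.185 for Itgav, but 0.179 against 0.169 for Itgb3.

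**Figure D4:**
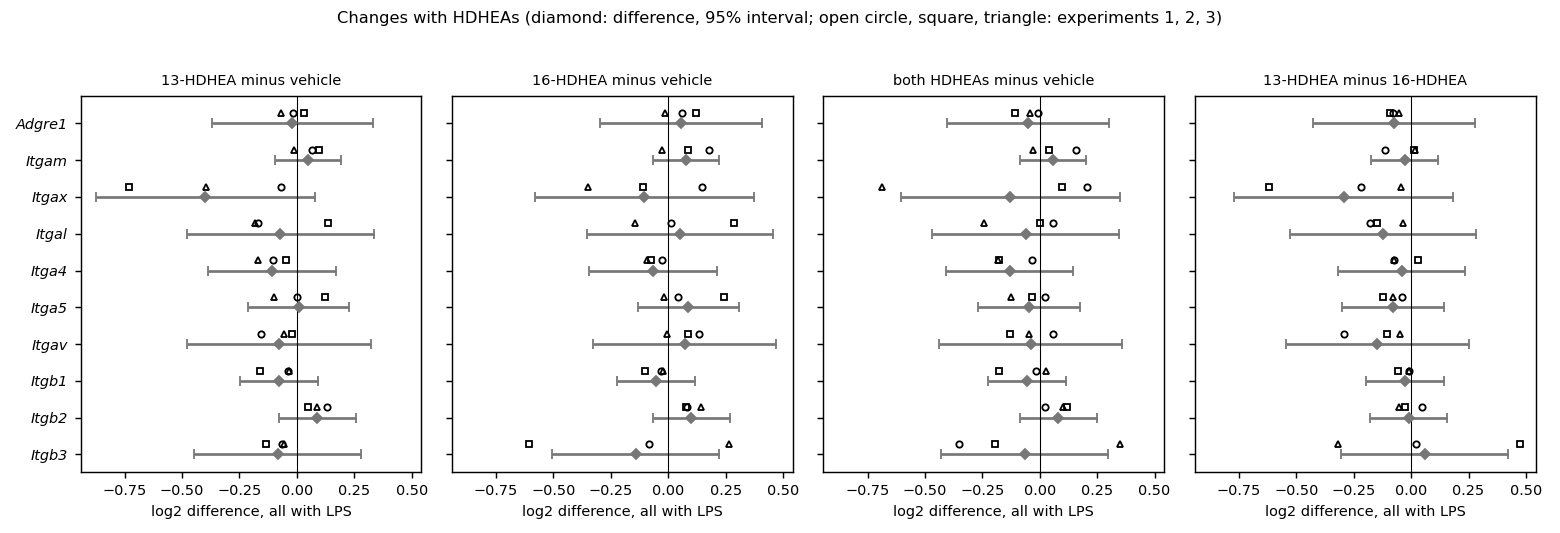
Log2 differences of the 10 genes in 4 comparisons among cells with LPS: 13-HDHEA, 16-HDHEA and both HDHEAs minus vehicle, and 13-HDHEA minus 16-HDHEA. Diamonds and bars are the limma difference and its 95% interval, and open circles, squares and triangles are experiments 1, 2 and 3. Every interval includes 0, and the widest belong to Itgax.

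13-HDHEA and 16-HDHEA differ in the carbon that carries the hydroxyl group and were given at the same 5.0 µM and for the same time, which makes 1 pair to compare. Their differences ran from -0.29 for Itgax to 0.06 for Itgb3, and the lowest unadjusted p of the 10 genes was 0.206. Without those 2 genes, they lay between -0.15 (Itgav) and -0.01 (Itgb2), with bounds from -0.55 to 0.28. The 13-HDHEA array was the lower of the pair in 3 of 3 experiments for 6 genes, Adgre1, Itgax, Itgal, Itga5, Itgav and Itgb1, as for 13.8% of all genes tested, and the higher in 3 of 3 for 0, against 10.7% of all genes. The 3 pairs are the same for each gene, so these 6 are not separate observations. The median difference of the 10 genes was -0.06, and that of all genes tested -0.01. The combined treatment holds 2.5 µM of each compound and so differs in dose from either single treatment, and against their mean the 10 genes differed by -0.09 to 0.12, with a lowest p of 0.316.

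The levels of the 5 groups can be put in order for each gene. For Adgre1 and Itgal the order of means was 16-HDHEA, vehicle, then 13-HDHEA and the combined treatment (for Itgal the combined treatment before 13-HDHEA), and no LPS last. The 4 groups with LPS overlapped with their neighbours in this order for each of the 10 genes. The 3 arrays with LPS and vehicle lay apart from the 3 without LPS for 8 genes (41.2% of all genes did), wholly above for Adgre1, Itgam, Itgal, Itga5, Itgav and Itgb2 (19.1%) and wholly below for Itgax and Itgb1 (22.2%). Itga4 and Itgb3 overlapped throughout.

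Values also differed between experiments, for some genes by as much as the smaller LPS differences. In a fit with group and experiment, the F test of the experiment passed for 3 of the 10 genes, Adgre1 (adjusted p = 0.00448), Itgav (0.00535) and Itgal (0.014) in limma, where 4.84% of all genes passed. Adgre1 was highest in experiment 3 in 5 of 5 groups, on average by 0.25 over its group mean. Itgav was highest in experiment 1 and lowest in experiment 2 in 5 of 5 groups, at 0.27 and -0.20 from its group means. Itgal was lowest in experiment 2 in 5 of 5 groups, at -0.27. Itga5 was highest in experiment 1 in 5 of 5 groups, at 0.11, but did not pass (adjusted p = 0.113). Itgam had the smallest of the 10, with mean deviations of 0.01, -0.01 and 0.00 (adjusted p = 0.974).

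**Figure D5:**
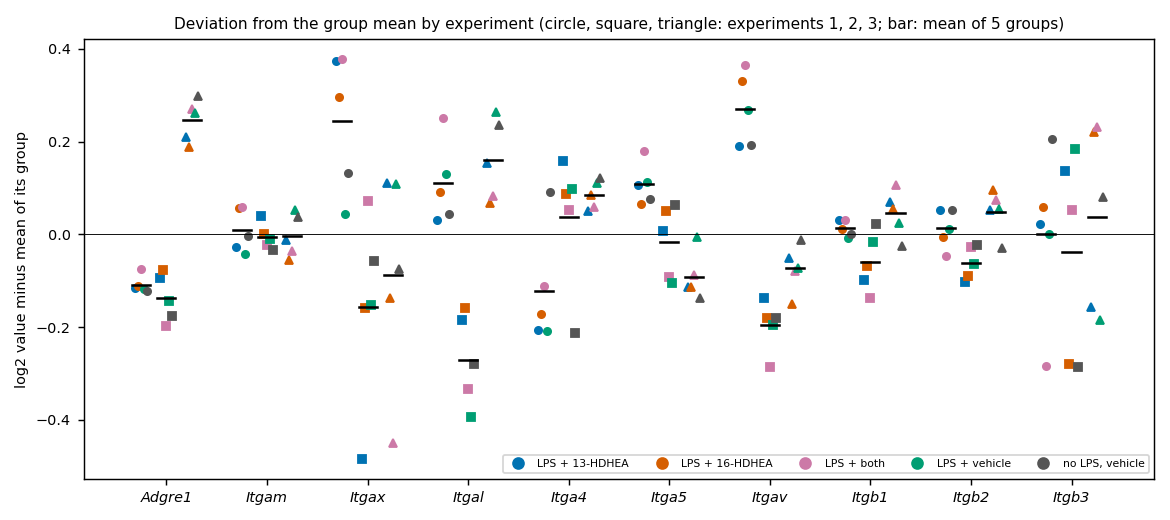
Deviation of each array from the mean of its group (log2, y axis) for the 10 genes along the x axis, with circles, squares and triangles for experiments 1, 2 and 3 and colours for the 5 groups. Black bars are means over the 5 groups. The triangles of Adgre1 lie at 0.25 on average and above all its other points, and the circles of Itgav at 0.27.

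For the 4 genes that rose with LPS, the other tested genes with the highest Pearson r over the 15 arrays were named. These 15 points are 12 arrays with LPS and 3 without, so that any gene with a large LPS difference gives a high r, and arrays of 1 experiment share further variation. For Adgre1 they were Saa3, an acute-phase gene, Lcn2, a siderophore-binding lipocalin gene, and Mlkl, for the necroptosis effector, each at r = 0.998. Within the 12 arrays with LPS, r was 0.91, 0.69 and 0.89. For Itgal they were St3gal3 (0.98, and 0.84 with LPS), Osbpl3 (0.98 and 0.80) and the cytokine gene Csf2 (0.98 and 0.84). For Itga5 they were Eml2 (0.99 and 0.88), the hexokinase gene Hk2 (0.99 and 0.81) and the TNF receptor gene Tnfrsf1b (0.99 and 0.88), and for Itgb2 Rhoq (0.97 and 0.79), Pla2g7 (0.96 and 0.84) and the interleukin-10 receptor gene Il10ra (0.96 and 0.75).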

How the data were processed

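Total RNA of RAW264.7 cells was labelled with an Affymetrix whole-transcript assay and hybridised to 15 arrays, per the labels' protocols. The authors deposited RMA values on a log2 scale, 1 per probe set, per the submitters' processing notes (version, chip definition and genome build: not given in the sources used here). Such values cannot show a shift shared by most genes, and changes of dim probe sets can be compressed. No detection p-values were used, and the number of arrays limits the precision.

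Of 41345 probe sets, 23521 had 1 gene symbol in the platform table, 1814 had several and 16010 were not listed. The brightest probe set per gene over all arrays was kept (22180 genes), and 15468 genes above the 40th percentile of their own array in at least 3 arrays were tested, while 6712 were set aside. Using limma 3.58.1 under R 4.3.3, 5 group means were fitted to the 15 arrays together (lmFit, then eBayes without trend or robust setting), leaving 10 residual and 3.59 prior degrees of freedom. Tests were two-sided with Benjamini-Hochberg adjustment over all genes tested and calls at 0.05, and the fit was tested on simulated data. The simulated noise was independent between arrays, so the simulation says nothing about variation shared by the arrays of an experiment. A dim group's fold is a lower bound taken against the mean of the arrays' 40th percentiles. Positions and promoters are RefSeq's on GRCm38.p6.

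The labels give each replicate number an experiment identifier, so same-numbered arrays are paired. Over 30 such pairs, the correlation of deviations from the group mean ran between 0.0835 and 0.404 and exceeded 0.1 in 28, and 15 of 15 arrays were closest to one of their own number. Without experiment as a block, p-values measure the spread between 3 experiments on 1 line. With the block, they measure the spread left after shifts shared by all groups of an experiment are removed. The fit with experiment as a block (8 residual degrees of freedom) was an alternative, and the F test of experiment was added after the data were seen.

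The 10 genes, the 7 gene lists and the 8 marker lists were chosen with earlier results of these data known. From each gene list, up to 4 tested genes with the smallest p for LPS were named, and the other genes named from the lists, such as Spi1, the dim ligand genes and the markers, were chosen after their values were seen. For each gene that rose, the 3 most correlated genes were named, leaving out predicted, RIKEN and RNA genes. Alternatives were a block, only the groups compared, no filter or the 60th percentile, repeated quantile normalization, median centring, the mean of probe sets, all probe sets, eBayes with trend and robust, and each array left out.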

Additional observations from a re-analysis of the deposited data

How the results depend on the processing

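The 3 arrays a group limit what log2 difference can be resolved, and the intervals given are those of the fit without experiment as a block. Itgb3 exceeded the 40th percentile in only 5 of 15 arrays. Of 1133 values of the 10 genes under the alternatives, 1040 kept direction and side of the threshold. Among the rest, 5 passed that had not and 88 uncalled values changed sign, and 0 called values were lost or turned. Most of the values are of the 6 comparisons with HDHEAs, where the lowest adjusted p in limma was 0.785 (Itgax with 13-HDHEA). Their side of the threshold could hardly change, so it says little about stability. For LPS against no LPS, 4 genes were higher (4 in every fit without 1 array) and 0 lower. With the replicate block 1 was lower (Itgb1, adjusted p = 0.0454) and Itgav also passed (adjusted p = 0.000526), and the block changed no other call of the 10 genes. Itgb1 made the lower count 1 also with repeated quantile normalization (-0.24, adjusted p = 0.0292) and with trend and robust eBayes (adjusted p = 0.0276), and Itgav passed with the mean of its probe sets. Over all genes, the 1 lower gene for 13-HDHEA against vehicle and for 13-HDHEA against 16-HDHEA, Mnd1 in both, was 0 with only the groups compared. Without 1 array the higher count for 13-HDHEA against vehicle ran from 0 to 1 (1 without experiment 1 of vehicle) and the lower count for 13-HDHEA against 16-HDHEA from 0 to 1 (0 without experiment 2 or 3 of either). Median centring turned the split for LPS over all genes to 2534 higher and 2082 lower, against 2089 and 2527, with a shift of the median of 0.06. Itgb5 passed with the block and without vehicle replicate 1 of the LPS arrays (adjusted p = 0.0474). Adgra3 was lost without any 1 of the 6 arrays (adjusted p from 0.0605 to 0.158) and with no filter, repeated quantile normalization or median centring, Adgrg6 with repeated quantile normalization (adjusted p = 0.0619), and the higher count of the activation list was 7 with median centring, against 4. The experiment's F test passed for 749 genes, 438 with no filter, 1490 at the 60th percentile, 1782 with trend and robust eBayes and 285 to 904 without 1 array, and for the same 3 of the 10 genes throughout, joined by Itga5 with trend and robust eBayes. The cause of these changes was not tested.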
